A study of Capra hircus with 8 samples.

Results

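Among the long non-coding RNAs (lncRNAs) that the authors of this goat study listed by number, 207 were listed at 0 in all 4 libraries of 4-cell embryos and above 0 at the 8-cell stage in both fertilised and cloned embryos. They were chosen by that rule from the table of 4- and 8-cell lncRNA values: an lnc_ number, 0 in every 4-cell library, and a value above 0 in at least 1 of the 2 libraries of each 8-cell group. They make up 4.59% of the 4506 numbered lncRNAs. The rise from 4 to 8 cells and the presence in both 8-cell groups are therefore set by the choice and are given as description, without a test.

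The study compared goat (Capra hircus) embryos from in vitro fertilisation (IVF), whose genome comes from sperm and egg, with cloned embryos from somatic cell nuclear transfer (SCNT), for which a body cell supplies the nucleus and the egg loses its own. There were 8 libraries in 4 groups of 2: IVF 4-cell, IVF 8-cell, SCNT 4-cell and SCNT 8-cell. Embryos were lysed whole and polyadenylated RNA was amplified with Smart-seq2, a full-length cDNA protocol for very small inputs. The labels give neither breed, donor cell type, number of embryos per library nor any treatment beyond the way the embryo was made, and they do not say whether the replicates were separate pools, so p-values measure only the spread between these libraries. In bulk samples, fewer cells of a type and less RNA per cell cannot be told apart.

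LncRNAs are transcripts with no known long reading frame. Many are spliced and polyadenylated like messenger RNAs, stay at low abundance, and differ between cell types and developmental stages. An early embryo first lives on RNA stored in the egg, and then starts transcription from its own genome, which in goats and other ruminants is placed around the 8-cell stage. A transcript absent before that stage and present afterwards is what such activation produces in principle, and in a cloned embryo the genome that starts is that of the transplanted nucleus. Function, genome position and sequence of the 207 lncRNAs are unstated in the sources used, and they are named by their numbers.

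Over the libraries, between 2064 and 2614 of the numbered lncRNAs were above 0. In the messenger RNA table, the 12 oocyte and early embryo markers found (of 15 looked for) each reached 1 FPKM in at least 1 library. FPKM stands for fragments for each kilobase of a feature and each 1000000 fragments. The summed levels were 2729 and 2950 FPKM in IVF against 3893 and 5946 FPKM in SCNT 8-cell embryos. A large part came from ZAR1L (195 and 184 against 783 and 1566 FPKM). Most of the other markers were higher in SCNT, ZP4 overlapped, and ZAR1 and FIGLA were lower in both SCNT libraries. Of 14 fibroblast markers 8 reached 1 FPKM, with sums of 121 and 109 FPKM in IVF against 90.8 and 89.6 FPKM in SCNT. The lower SCNT sum came from DCN alone (94.3 and 85.5 against 33.9 and 39.5 FPKM). Without it the sums were 27.2 and 23.8 FPKM in IVF against 57.0 and 50.1 FPKM in SCNT. Of the other 13 markers, 8 were higher in each SCNT library than in either IVF library, among them TIMP1, TAGLN, VIM, COL1A2 and COL3A1. The rest of the 8, COL1A1, COL6A2 and S100A4, stayed under 1 FPKM in all 4 libraries. Messenger RNAs as a whole leaned the same way. Of 10303 tested, 6781 had a positive log2 difference (SCNT minus IVF) and 3522 a negative one. Their share without overlap was not computed, so nothing particular to fibroblast markers is read from the 8. Of 10 cumulus and granulosa markers 4 reached 1 FPKM in at least 1 library, with sums between 60.7 and 93.6 FPKM over the 4 libraries. AMH, FSHR and INHA were at 0 in all 4. The part of these levels in the lncRNA values was not tested.

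Presence in both kinds of embryo rested mostly on single libraries. Of the 207 members, 133 (64.3%) were above 0 in exactly 1 IVF and 1 SCNT 8-cell library, 66 in 3 libraries and 8 in all 4. Both IVF libraries showed 51 members and both SCNT libraries 31. IVF replicate 1 held 154 of the members, SCNT replicate 2 held 146, IVF replicate 2 held 104 and SCNT replicate 1 held 92. The 2 richest libraries, IVF replicate 1 and SCNT replicate 2, shared 112 members, and the 2 poorest, IVF replicate 2 and SCNT replicate 1, shared 42. The member count also moved with the library: it would be 104 without IVF 8-cell replicate 1 and 92 without SCNT 8-cell replicate 2.

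**Figure D1:**
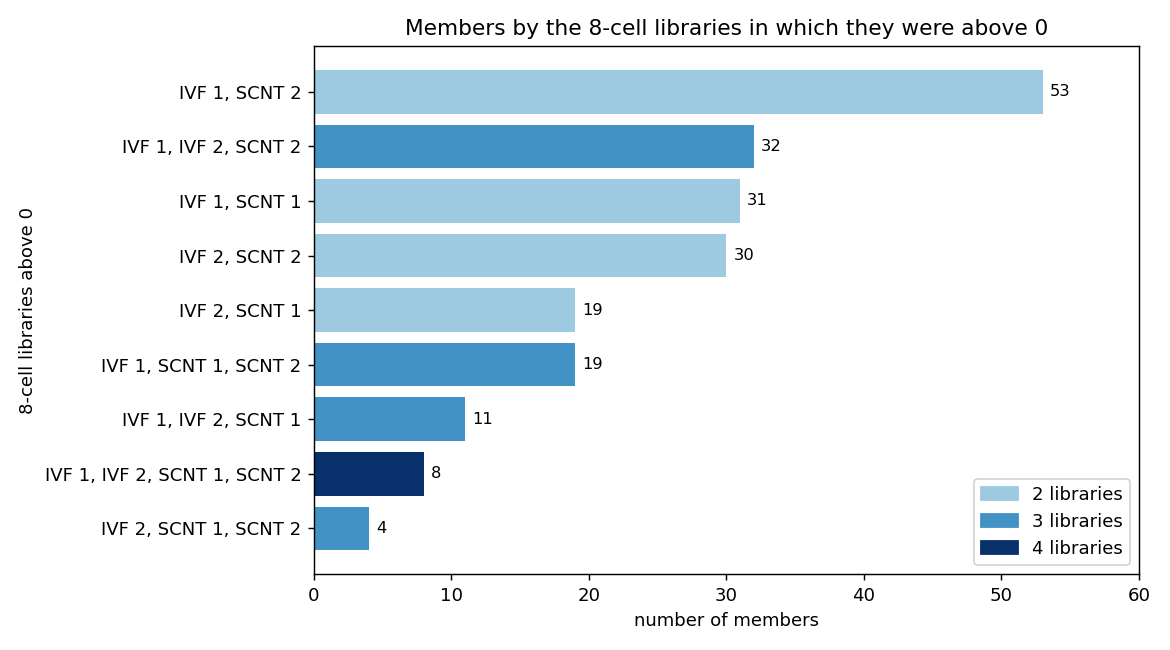
Number of members (horizontal axis) for each combination of 8-cell libraries in which they were above 0 (vertical axis), coloured by the number of libraries. The largest class, 53 members, was above 0 in IVF replicate 1 and SCNT replicate 2 alone, and 8 members were above 0 in all 4 libraries.

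The same classes were set beside other numbered lncRNAs. Of the 2019 that were above 0 at the 4-cell stage and in both 8-cell groups, 53.1% were above 0 in all 4 8-cell libraries, against 3.86% of the members. Those 2019 were also more abundant, with a median mean level of 0.771 FPKM over the 8-cell libraries against 0.280 FPKM for the members. The rule can be turned around: 124 numbered lncRNAs were at 0 in all 8-cell libraries and above 0 in both 4-cell groups, 95 of them in exactly 1 library of each 4-cell group and 3 in all 4. Of 787 numbered lncRNAs at 0 at 4 cells and seen at 8 cells, 26.3% were seen in both 8-cell groups, 355 in IVF alone and 225 in SCNT alone. Under the turned rule 25.7% of the 482 numbered lncRNAs seen at 4 cells and at 0 at 8 cells were seen in both 4-cell groups. Annotated lncRNAs met the same rule in 42 of 1505 cases (2.79%), 4 of them in all 4 8-cell libraries.

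**Figure D2:**
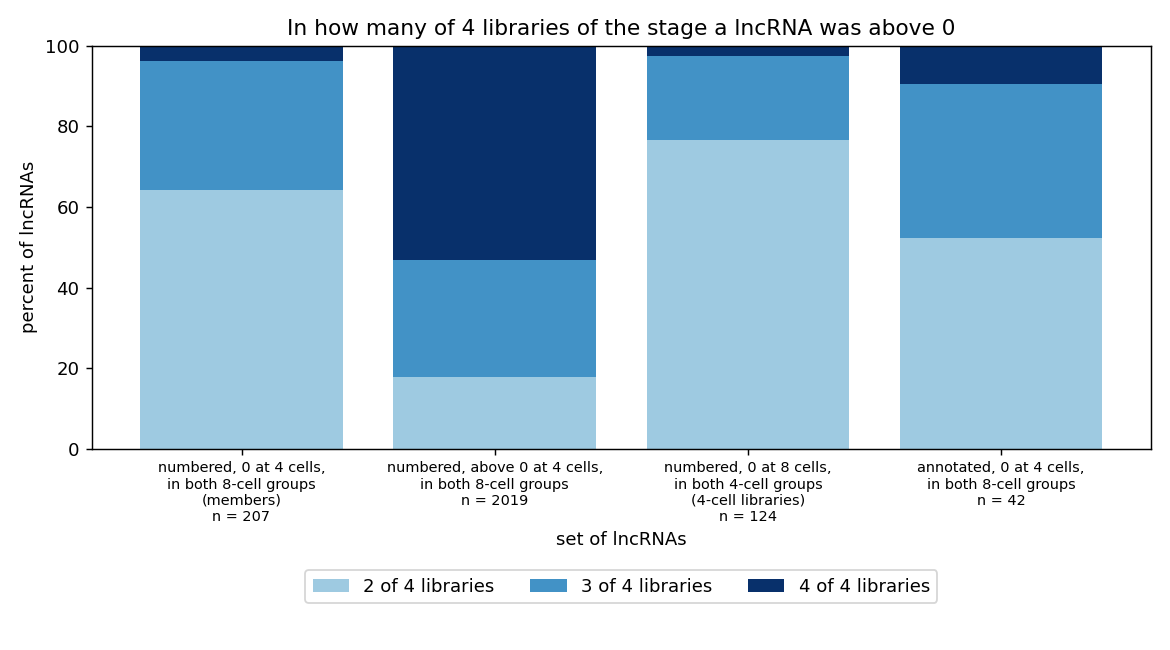
Percent of lncRNAs (vertical axis) above 0 in 2, 3 or 4 of the 4 libraries of a stage, for the members, for numbered lncRNAs also above 0 at 4 cells, for those present only at 4 cells, and for annotated lncRNAs that meet the rule. Of the members 64.3% were in 2 libraries and 3.86% in 4, and of the numbered lncRNAs also above 0 at 4 cells 53.1% were in 4.

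Levels were low. The highest 8-cell value of a member had a median of 0.688 FPKM, with 67 members reaching 1 FPKM, 9 reaching 5 FPKM and 3 reaching 10 FPKM in any library. At 1 FPKM or more in at least 1 library of each group there were 18 members, and 0 members had 1 FPKM in all 4 libraries. The members that were above 0 in a library had median levels there of 0.419 and 0.587 FPKM in IVF against 0.344 and 0.436 FPKM in SCNT replicates 1 and 2. All numbered lncRNAs above 0 in the same libraries had medians of 0.688, 0.926, 0.566 and 0.633 FPKM. Summed over the members, the levels were 138 and 176 FPKM in IVF against 111 and 119 FPKM in SCNT, which is 0.763%, 0.990%, 1.39% and 1.30% of the summed FPKM of all numbered lncRNAs.

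Whole reads could be recovered from the values, because each FPKM is a whole number of reads times what 1 read is worth. The smallest read numbers that fit a member were found for 207 of 207, within 3e-05 read, with a median of 31 reads summed over the 4 libraries. With library ratios shifted on purpose only 11.6% could be fitted. True read numbers may be multiples of these. By this measure 42 members rested on 10 reads or fewer and 32 on 100 reads or more. The median was 23 reads for members seen in 2 libraries, 56.5 for 3 and 111 for 4.

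These reads also set what a 0 at the 4-cell stage can show. A count of 0 in 1 library allows up to 3 reads (counting error only, since PCR copies cannot be told from separate molecules). Taking the 4-cell library with the largest limit, this corresponded to a median of 0.110 FPKM over the members, from 0.0147 to 2.48 FPKM. Zeros in all 4 libraries together set a lower limit, which was not computed. Where the true read numbers are multiples, both limits are lower. For 123 members both 8-cell group means lay above the 4-cell limit of a single library. For 61 others the mean of at least 1 group did not, and for 23 even the highest 8-cell value did not. The gain of these 23 was not detectable against a single 4-cell library, which does not settle it for the 4 together. Just inside the rule stood lnc_483, with 0.0116 FPKM in IVF replicate 1 and 0.0224 FPKM in SCNT replicate 2, or 1 and 2 reads. Next were lnc_645, with 0.0239 and 0.00923 FPKM in the same libraries, and lnc_3373, with 0.0401 FPKM in IVF replicate 2 and 0.0673 FPKM in SCNT replicate 1. Just outside it, 257 numbered lncRNAs missed by a single 4-cell library. The closest were lnc_3643 at 0.0135 FPKM in IVF 4-cell replicate 2, lnc_804 at 0.0142 FPKM in SCNT 4-cell replicate 2 and lnc_4134 at 0.0228 FPKM in SCNT 4-cell replicate 1.

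The 2 most abundant members shared an on and off pattern across the replicates. The lncRNA lnc_3101 was listed at 0 and 47.0 FPKM in IVF replicates 1 and 2 and at 33.1 and 0 FPKM in SCNT replicates 1 and 2. The smallest read numbers behind these values were 3931 and 2590 reads. The lncRNA lnc_3185 stood at 47.8 FPKM in IVF replicate 2 and 23.4 FPKM in SCNT replicate 1 and at 0 in the other 2 libraries. Together they made up 54.0% of the members' summed level in IVF replicate 2 and 51.0% in SCNT replicate 1. Without them the sums over the members were 138, 80.8, 54.3 and 119 FPKM in IVF replicates 1 and 2 and SCNT replicates 1 and 2. The 4-cell limits were at most 0.0405 FPKM for lnc_3101 and 0.906 FPKM for lnc_3185.

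Other abundant members followed the opposite libraries. The lncRNA lnc_642 stood at 11.0 FPKM in IVF replicate 1 and 15.4 FPKM in SCNT replicate 2 and was listed at 0 in the other 2. Its reads were at least 299 and 434. A weaker form of that pattern was seen in lnc_632, which was above 0 everywhere, at 8.40 and 0.448 FPKM in IVF against 1.73 and 7.84 FPKM in SCNT. In both lncRNAs the 2 libraries of each group lay further apart than the groups did.

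The lncRNA lnc_754 was the most even of the abundant members apart from 1 library. It stood at 5.35 and 6.12 FPKM in IVF and at 6.10 FPKM in SCNT replicate 2, from at least 202, 255 and 239 reads, and was listed at 0 in SCNT replicate 1. A different pattern was that of lnc_446, with 0.989 and 2.64 FPKM in IVF against 0 and 5.64 FPKM in SCNT, again with the 0 in SCNT replicate 1. In lnc_3879 the 0 fell in IVF replicate 2, with 2.96 FPKM in IVF replicate 1 and 1.69 and 2.79 FPKM in SCNT.

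The remaining members among the 12 with the highest means were each above 0 in 1 library of either group. For lnc_3620 these were IVF replicate 2 (9.66 FPKM) and SCNT replicate 1 (3.52 FPKM), and for lnc_2879 the same libraries (2.72 and 4.05 FPKM). In lnc_3288 (6.65 and 0.361 FPKM) and lnc_3600 (4.04 and 2.49 FPKM) they were IVF replicate 1 and SCNT replicate 2. The lncRNA lnc_48 was above 0 in both first replicates, at 9.30 FPKM in IVF against 0.718 FPKM in SCNT. Of the 12, then, 8 were in exactly 2 libraries, 3 in 3 and lnc_632 in all 4.

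**Figure D3:**
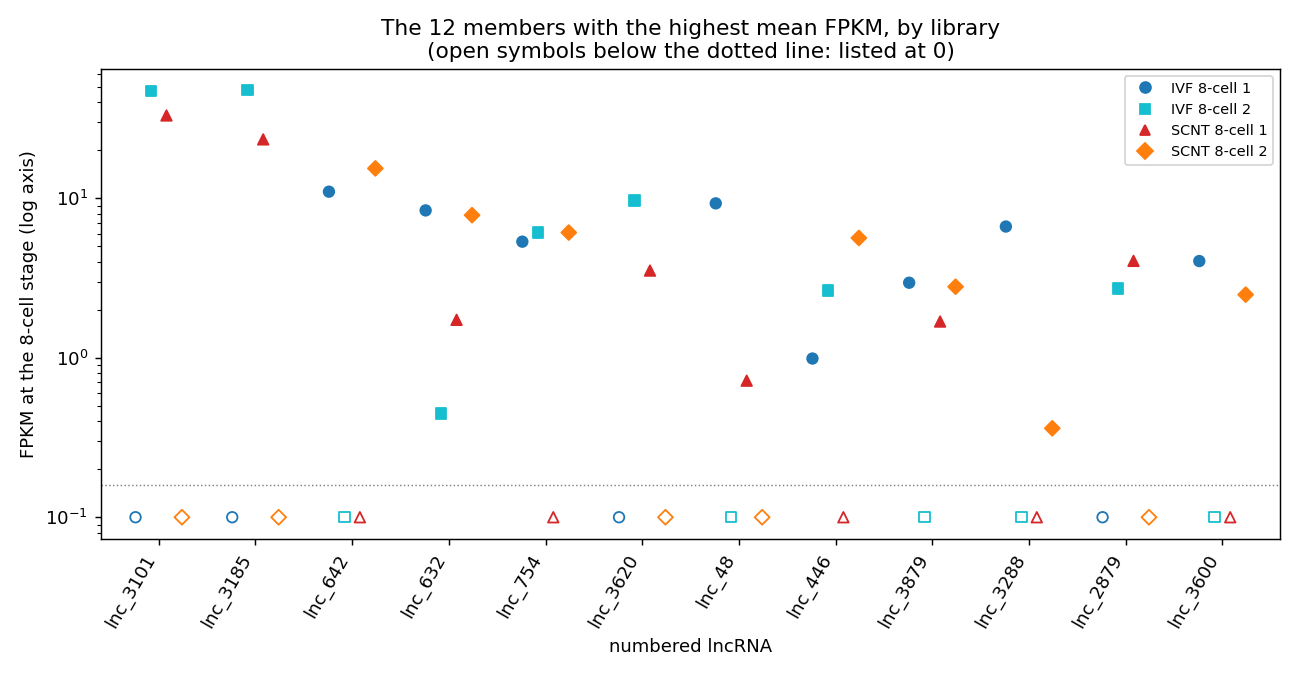
FPKM at the 8-cell stage (vertical log axis) of the 12 members with the highest mean, with 1 symbol per library and open symbols below the dotted line for libraries listed at 0. The lncRNAs lnc_3101 and lnc_3185 were high in IVF replicate 2 and SCNT replicate 1 and at 0 in the other libraries, while lnc_642 was high in the opposite 2 libraries.

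Absences of this kind were wider than the leading members. In the IVF group 156 members were at 0 in 1 of the 2 replicates, and in 36 of these the other replicate had 30 reads or more. In the SCNT group the numbers were 176 and 25. At the low end, the other replicate had 3 reads or fewer in 28 and 43 members, where a 0 lies within counting error.

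The 8 members above 0 in every 8-cell library are the part of the list seen in both replicates of both groups. Besides lnc_632 they were lnc_502, lnc_2494, lnc_1831, lnc_3050, lnc_3590, lnc_2582 and lnc_42. The closest values were those of lnc_2494, at 0.495 and 1.01 FPKM in IVF against 0.799 and 0.876 FPKM in SCNT, from at least 12, 27, 20 and 22 reads, with the groups overlapping. In lnc_3050 the IVF values, 0.730 and 0.811 FPKM, lay above the SCNT values of 0.388 and 0.273 FPKM. The groups overlapped in lnc_3590 (0.725 and 0.119 FPKM in IVF, 0.268 and 0.572 FPKM in SCNT). They overlapped as well in lnc_2582, at 0.0938 and 0.391 FPKM in IVF against 0.218 and 0.271 FPKM in SCNT. The lowest of the 8 was lnc_42, at 0.0403 and 0.0658 FPKM in IVF against 0.00781 and 0.155 FPKM in SCNT, where the lowest value is a single read at the smallest read numbers.

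The design also compares the kinds of embryo at the 8-cell stage, which the rule used only in asking for a value above 0 in each. No member passed the test of SCNT against IVF at 8 cells (limma on log2(FPKM + 0.5), Benjamini-Hochberg over 2005 lncRNAs, the 8-cell libraries alone). The filter of 0.5 FPKM in at least 2 of these libraries was met by 65 members and missed by 142. Over all tested lncRNAs 4 passed, or 0.2%, and 450, or 22.4%, had an unadjusted p under 0.05, against 9 of the 65 members, 8 of these lower and 1 higher in SCNT. Each of the 4 that passed was at 0 in both libraries of 1 group, a pattern the rule keeps out of the members. The counts for members and for all lncRNAs are therefore not like for like. Log2 differences (SCNT minus IVF, after adding 0.5 FPKM, so that low levels are compressed) had a median of −0.18 over the 65 members and −0.39 over all tested lncRNAs. After centring each library on its median these were 0.19 and −0.02, and after quantile normalization 0.06 and −0.01, so the sign of the members' median depended on the scaling. The median also moved with single libraries: it was −0.55 and −0.60 without IVF 8-cell replicate 1 or 2, and 0.36 and 0.20 without SCNT 8-cell replicate 1 or 2. These fits held fewer members (35, 35, 51 and 35), and the rule and filter favour such signs. A member seen in 1 library per group stays only if both are kept, and a 0 then lowers the mean of the complete group. Without a filter on low values the medians were −0.08 for the 207 members and −0.15 for 5208 lncRNAs. With the 4-cell libraries in the same fit, 9 members passed, 1 higher and 8 lower, among 211 lncRNAs (10.5%). There the members' 4-cell values, all 0 by the rule, enter the estimate of the spread without adding to it.

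Over the whole list, 19 of the 207 members had both SCNT values below both IVF values and 11 had both above. Among the 2226 numbered lncRNAs above 0 in both 8-cell groups, 30.4% were lower and 7.86% higher in this sense, against 9.18% and 5.31% of the members. In the other 177 members the groups overlapped. For the 133 members above 0 in exactly 1 library of each group this was fixed, because both groups hold a 0. Of the 2019 numbered lncRNAs also above 0 at 4 cells, 17.8% were of that class. The lower shares of the members are therefore not read as smaller differences between the kinds of embryo.

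Of the 65 tested members 10 (15.4%) had both SCNT values below both IVF values, against 39.6% of the 1372 numbered lncRNAs above 0 in both 8-cell groups that met the same filter. Here too, members in 1 library of each group overlap whatever their levels, so the shares are given as description only. On this lower side, the largest difference among tested members without overlap was that of lnc_4521. It stood at 2.14 and 0.656 FPKM in IVF and at 0.0318 and 0 FPKM in SCNT, with a log2 difference of −1.76 ± 0.50 (SE, n = 2 per group) and a limma adjusted p of 0.153. In lnc_589 the IVF libraries had 1.53 and 1.30 FPKM and the SCNT libraries 0 and 0.175 FPKM (log2 difference −1.72 ± 0.36, limma adjusted p = 0.0901). Both IVF values of lnc_1831, 1.27 and 1.46 FPKM, were above its SCNT values of 0.195 and 0.151 FPKM (−1.47 ± 0.35, limma adjusted p = 0.107). These 3 have their IVF replicates on 1 side and their SCNT replicates on the other, and the differences did not pass. Likewise lower in each SCNT library and not passing were lnc_247 (−1.58), lnc_1261 (−1.35) and lnc_2875 (−1.32). Their IVF levels lay between 0.571 and 1.82 FPKM and their SCNT levels between 0 and 0.478 FPKM. At the smallest read numbers, lnc_1261 rested on 4 and 11 reads in IVF and on 0 and 1 in SCNT. The 0.0318 FPKM of lnc_4521 was also 1 read.

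On the higher side, lnc_3723 stood at 0.291 and 0 FPKM in IVF and at 2.92 and 2.28 FPKM in SCNT, from at least 13, 0, 135 and 106 reads. Its log2 difference of 2.30 ± 0.47 (SE, n = 2 per group) had the smallest limma adjusted p among the members, 0.0858. The lncRNA lnc_502 was above 0 in all 4 libraries, with 0.657 and 0.596 FPKM in IVF against 1.39 and 2.26 FPKM in SCNT (1.02 ± 0.46, limma adjusted p = 0.295). The reads were at least 4, 0, 9 and 40 in lnc_3025 (1.75) and 17, 0, 42 and 36 in lnc_3516 (1.53). In both, IVF replicate 2 was at 0 and the other IVF value, 0.343 and 0.841 FPKM, lay under both SCNT values. These were the 4 of the 65 tested members (6.15%) with both SCNT values above both IVF values, against 7.65% of those 1372 numbered lncRNAs. The same limit holds for these shares.

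**Figure D4:**
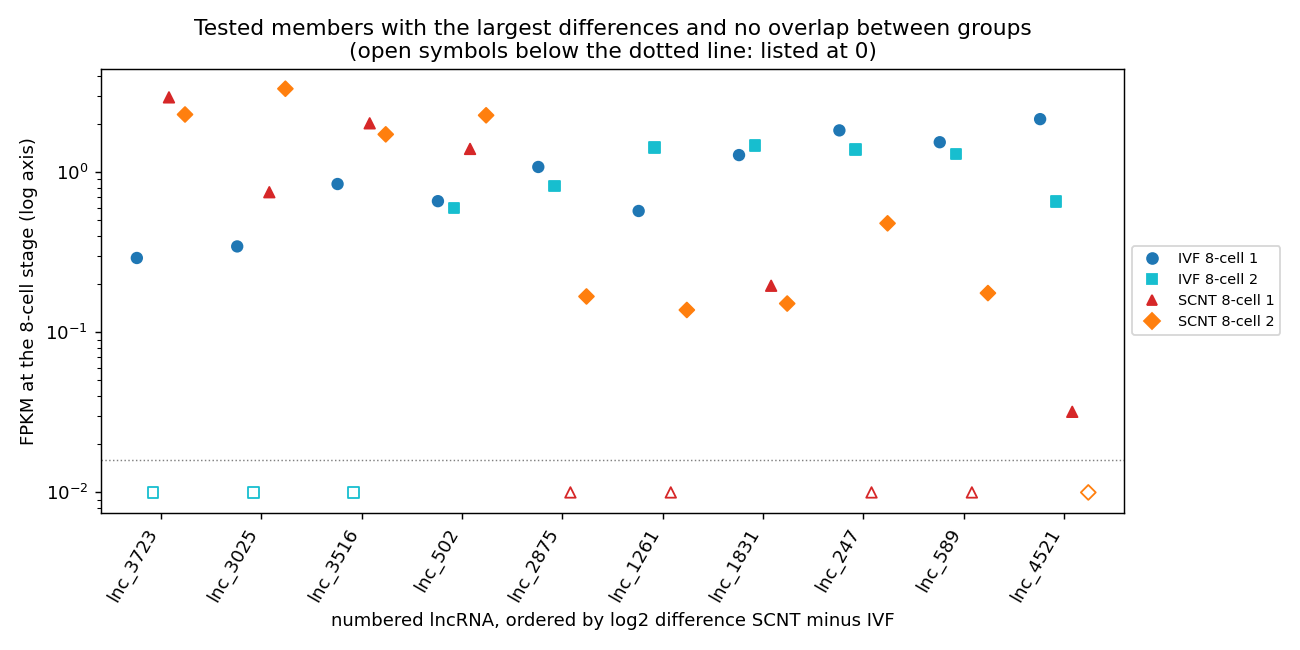
FPKM at the 8-cell stage (vertical log axis) of the 10 tested members whose groups did not overlap and whose log2 differences were largest, ordered from higher to lower in SCNT, with open symbols below the dotted line for libraries listed at 0. The 4 members on the left were higher in both SCNT libraries and the 6 on the right lower, and none of the 10 passed the test over all lncRNAs.

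Members with consecutive numbers were looked at because a numbered list may follow the genome, which the sources used here do not state. There were 12 such pairs among the members, involving 24 of the 207 (11.6%). That share grows with the size of a set and is read as a count only. In 1 of the 12 pairs both members were above 0 in the same libraries: lnc_589 and lnc_590, the latter at 0.629 and 0.600 FPKM in IVF against 0 and 0.319 FPKM in SCNT. In the pair with the highest levels, lnc_642 was at 0 in IVF replicate 2, where lnc_643 had 0.401 FPKM. In the next, lnc_2208 stood at 1.41 and 1.87 FPKM in IVF against 2.52 FPKM in SCNT replicate 1, and lnc_2207 at 0.305 FPKM in IVF replicate 1 and 0.560 FPKM in SCNT replicate 1. In the fourth pair, lnc_4287 was above 0 in both SCNT libraries (0.441 and 0.565 FPKM) and lnc_4288 in SCNT replicate 1 alone (1.10 FPKM).

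Numbers next to the members were mostly, though not always, above 0 at the 4-cell stage. Beside 199 of the 207 members (96.1%) the number before or after was above 0 in a 4-cell library, as it was for 95.9% of all numbered lncRNAs. Counted one by one, 77.6% of the direct neighbours of members were above 0 at 4 cells, against 80.1% for all numbered lncRNAs. Of the 24 direct neighbours of the 12 leading members 16 were, and 8 were at 0 there, among them both neighbours of lnc_642. Those with high levels are described here. Next to lnc_754, lnc_755 stood between 10.8 and 18.3 FPKM in the 4-cell libraries and at 10.9 FPKM in SCNT 8-cell replicate 1, where lnc_754 was at 0. Next to lnc_3185, lnc_3186 was above 0 in 2 of the 8 libraries, at 53.6 FPKM in IVF 4-cell replicate 2 and 55.3 FPKM in SCNT 8-cell replicate 2, in both of which lnc_3185 was at 0. Next to lnc_48, lnc_47 had 16.7 and 21.5 FPKM in IVF against 0 in SCNT at 4 cells, and between 14.9 and 41.3 FPKM in all 8-cell libraries. Next to lnc_3600, lnc_3601 had 69.4 FPKM in SCNT 4-cell replicate 2, 223 and 195 FPKM in IVF at 8 cells and 35.4 and 0 FPKM in SCNT.

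A further neighbour was chosen after its values were seen. The lncRNA lnc_3103, 2 numbers after lnc_3101, stood between 16.6 and 38.6 FPKM in the 4-cell libraries, where lnc_3101 was at 0. At 8 cells it had 25.7 FPKM in IVF replicate 1 and 14.6 FPKM in SCNT replicate 2, again with lnc_3101 at 0. In IVF replicate 2 and SCNT replicate 1, the libraries that held lnc_3101, it had 2.05 and 1.45 FPKM. How the authors divided reads between numbered lncRNAs that may overlap is not given in the sources used here, and its part in these values was not tested.

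The amount of a lncRNA also depends on how its end is made and how fast it is destroyed. The RNA exosome and its adaptor complexes degrade many nuclear non-coding RNAs, the cleavage and polyadenylation machinery gives polyadenylated RNAs their tail, and the Integrator complex ends many short or non-coding transcripts. Genes of these complexes were read from the messenger RNA table of the same 8-cell libraries (limma on log2(FPKM + 1), Benjamini-Hochberg over 10303 genes, of which 398, or 3.86%, passed). Of 27 tested genes in the exosome and adaptor list 1 rose and 1 fell in SCNT embryos. The list also holds XRN2, which lies outside the exosome, and MPP6. The latter has its own entry beside the cofactor gene MPHOSPH6, so it is a different gene here and its place in the list is not supported. Both XRN2 and MPP6 are counted in the 27 and in the median of the list. Neither XRN2 nor MPP6 passed. C1D, which encodes a cofactor of the nuclear exosome, fell from 86.0 and 31.1 FPKM in IVF to 4.65 and 4.43 FPKM in SCNT (log2 difference −3.25 ± 0.54, limma adjusted p = 0.0292). EXOSC1, which encodes a subunit of the exosome core, rose from 6.76 and 2.74 FPKM to 26.7 and 54.3 FPKM (2.86 ± 0.55, limma adjusted p = 0.0391). Its call was lost after quantile normalization and without IVF 8-cell replicate 2, that of C1D without IVF 8-cell replicate 1, and both without a filter on low values.

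None of 17 cleavage and polyadenylation genes and none of 12 Integrator genes passed in limma, with 4 and 5 at an unadjusted p under 0.05, all of these higher in SCNT. In the exosome list there were 11, of which 9 were higher. Over all tested genes 31.1% had an unadjusted p under 0.05, and 25.4% had it and were higher in SCNT, and nothing particular to the lists is read from these counts. The smallest p-values belonged to CSTF2, a subunit of the cleavage stimulation factor (0.757 and 1.65 FPKM in IVF, 6.01 and 6.51 FPKM in SCNT, limma adjusted p = 0.0580), and to the cleavage factor gene CLP1 (limma adjusted p = 0.0776). In Integrator they belonged to INTS9 (14.0 and 17.8 FPKM in IVF, 49.4 and 74.2 FPKM in SCNT, limma adjusted p = 0.0501) and INTS5 (limma adjusted p = 0.0775). The median log2 difference was 0.16 in the exosome list, 0.41 in cleavage and polyadenylation and 0.69 in Integrator, against 0.39 over all tested genes.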

How the data were processed

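The authors deposited 4 tables of FPKM values for 8 libraries; per the submitters' processing notes, fastp, HISAT2 2.2.1 and HTSeq were used, without a role or order. The genome build, annotation, total behind the scaling and assembly of the numbered lncRNAs are unstated in these sources. The 8-cell values of the 4506 numbered lncRNAs equal those of their separate table. Groups came from the sample titles.

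The members and the gene and marker lists were chosen with earlier results of these data known. Differences were fitted with limma 3.58.1 in R 4.3.3 (lmFit, eBayes with a trend, two-sided, threshold 0.05). The fit was also run on simulated data, in which the spread set for each feature was at most the median one. That run does not show how the fit performs on members whose replicates disagree. The 8-cell libraries alone entered the lncRNA fit, because the 4-cell values of the members are all 0. Messenger RNAs needed 1 FPKM in 2 or more libraries. Reads were recovered from the ratios between libraries at which low values recur, and the search went up to 5000 reads for the lowest library. Total depth was not used.

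Named members were the 12 with the highest mean, up to 6 tested members in each direction with the largest differences and no overlap (4 and 6 existed), those called, those at 1 FPKM in all 4 libraries (0 existed), the 3 nearest the rule on each side, the 4 consecutive pairs with the highest levels, and direct neighbours of the first 12. Alternatives were the pseudocount, filter, scaling, trend, groups and features in the fit, a replicate block, the thresholds of the rule and each library left out.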

Additional observations from a re-analysis of the deposited data

How the results depend on the processing

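The number of members was 53 at 0.5 FPKM and 18 at 1 FPKM at the 8-cell stage, 8 when both libraries of each 8-cell group had to show it, and between 92 and 292 with 1 of the 8 libraries left out. Limma called 151 lncRNAs with a pseudocount of 0.1 FPKM, 0 without a filter (434 at an unadjusted p under 0.05), 211 with all 4 groups in 1 fit and between 4 and 37 with an 8-cell library left out, where the lone sample of a group is assumed to vary like the other group. Members called were 9 with all 4 groups in 1 fit and 0 or 1 with a library left out (lnc_48, without IVF 8-cell replicate 2). With a replicate block, 0 lncRNAs (390 at an unadjusted p under 0.05) and 0 members were called. Replicate differences of the IVF and SCNT 8-cell pairs correlated at −0.06 over lncRNAs, 0.12 over messenger RNAs and −0.37 over the 207 members, whose rule used these libraries, and the labels do not pair the numbers. With all 4 groups in 1 fit, 7 of the 10 named differences passed, among 9 of the 65 tested members and 211 (10.5%) of all 2005 lncRNAs. The members' 4-cell values, all 0 by the rule, enter the spread of that fit without adding to it. These passes are therefore not read as support. The 10 named differences kept their direction in every alternative that gave a value. Because they were chosen for no overlap between the groups, their direction could turn only under median centring or quantile normalization. Among members that met the filter, 4 (6.15%) had both SCNT values above and 10 (15.4%) both below those of IVF, against 7.65% and 39.6% of 1372 numbered lncRNAs at the same filter. Members in 1 library of each group cannot enter either count, so these shares are description only. Of the decay and 3-prime end genes, 0 were called without a filter, 1 after quantile normalization, 12 with the replicate block and between 1 and 22 with a library left out. Over all messenger RNAs 1924 were called with the block, 0 without a filter, 271 after quantile normalization and between 114 and 3384 with a library left out. The causes of these changes were not tested. The smallest read numbers that fit had a median of 31 per member, summed over the 8-cell libraries. For members with few reads, such numbers limit what a 0 shows.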
